A study of Saccharomyces cerevisiae with 11 samples.

Results

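The transcripts of 80 cytosolic ribosomal protein genes of Saccharomyces cerevisiae were followed as growth slowed to nearly nothing. The members were the genes whose single symbol on an array probe set was RPL or RPS with a number and an optional A or B, or 1 of the 5 stalk protein genes RPP0, RPP1A, RPP1B, RPP2A and RPP2B. They made up 80 of the 5597 genes tested. Of these, 47 encode proteins of the large subunit, with the stalk counted among them, and 33 encode proteins of the small subunit. The set held 31 complete pairs of A and B paralogues and 18 genes without a letter. A current annotation lists 137 such genes, and 54 of them were measured here only by probe sets that they share with their paralogue, so they are not members, and their shared probe sets are given as a group below.

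The cells were CEN.PK113-7D, a prototrophic MATa laboratory strain (MAL2-8c SUC2), in anaerobic cultures limited by glucose. Steady-state chemostats, in which fresh medium sets the growth rate, were run 3 times independently at 0.025 per hour and served as time 0. Retentostats, whose effluent leaves through a filter that keeps all cells in the vessel, were started in duplicate from such chemostats. Both were sampled on days 2, 9, 16 and 22, when the growth rate was about 0.0084, 0.0024, 0.0011 and 0.00063 per hour, so the 4 retentostat groups of 2 arrays come from the same 2 cultures and all 4 are set against the same 3 chemostat arrays. Each of the 11 arrays gives 1 intensity per probe set, and the number of arrays limits the precision. The a-factor genes MFA1 and MFA2 read at least 6188 on every array and the alpha-factor gene MF(ALPHA)2 read at most 13.6 in the chemostats, but averaged 58.6, 86.2 and 64.2 at days 9, 16 and 22. Another alpha-cell gene, MF(ALPHA)1, averaged 1891 at day 22 and 164 in the chemostats. Among genes expressed without oxygen, ANB1 read at least 4282 throughout, whereas DAN1 averaged 1874 at day 22 and 6863 in the chemostats. HEM13 averaged 506 at day 22 and 1062 in the chemostats. TIR1 moved the other way and averaged 16489 at day 9 and 10477 at day 22, against 8811 in the chemostats. AAC3 averaged 74.2 at day 2 and 141 at day 22, against 167 in the chemostats.

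The cytosolic ribosome is built from a large and a small subunit of ribosomal RNA and many small basic proteins, and most of the protein genes of yeast exist as a pair of near-identical copies kept from an ancient genome duplication. Their transcription is bound by the general factor Rap1 together with Fhl1, which recruits the coactivator Ifh1 when the TOR and protein kinase A pathways report good nutrition. In growing yeast these are among the most abundant messenger RNAs, and their share is known to follow the growth rate.

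None of the 80 members read at the lower limit of 12 on any array. Their mean chemostat intensities ran between 265 and 8558. Levels of different probe sets are not compared, and every change below is the log2 ratio of 1 gene between groups, with its standard error and a p from limma adjusted over all genes tested. A gene is said to have fallen or risen where that adjusted p was under 0.05. The deposited arrays had been scaled to 1 trimmed mean, and on that scale the median of all genes tested moved up by 0.04, 0.06, 0.14 and 0.23 at days 2, 9, 16 and 22. Changes are therefore also given after scaling each array to the same median over genes, which leaves that median at −0.03 at day 22.

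As a group the ribosomal protein transcripts were lower in retentostats than in chemostats on every day, by a modest amount. On the deposited scale the median change of the 80 members was −0.17, −0.34, −0.27 and −0.28 at days 2, 9, 16 and 22, which at day 22 is 0.823 of the chemostat level. After median scaling it was −0.23, −0.37, −0.42 and −0.55. After quantile normalization it was −0.13, −0.43, −0.34 and −0.30, so the order of the days depends on the scaling. At day 22, 67 of 80 members lay below their chemostat mean as deposited and 75 of 80 after median scaling. In a bulk culture, fewer cells holding a transcript and less of it in each cell cannot be told apart.

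**Figure D1:**
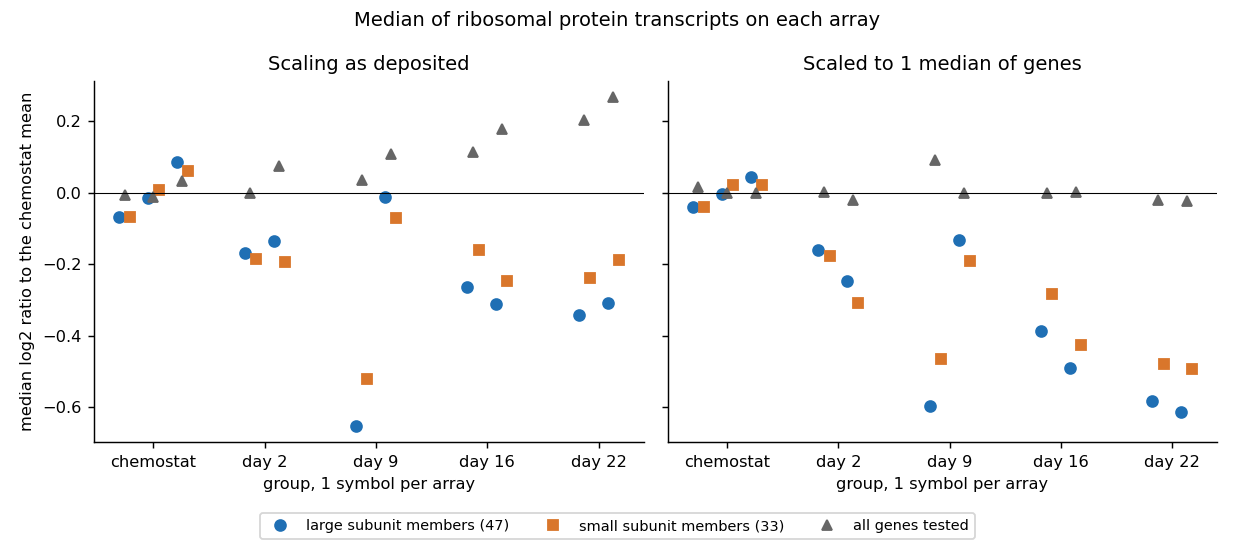
Median log2 ratio to the chemostat mean (vertical axis) on each of the 11 arrays by group (horizontal axis), for large subunit members, small subunit members and all genes tested, as deposited (left) and scaled to 1 median of genes (right). On the right the members sink to between −0.48 and −0.61 at day 22, while day 9 replicate 1 lies far below day 9 replicate 2 in both panels.

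The arrays of a day did not all lie together. The median of the members stood at −0.07, −0.01 and 0.07 on the chemostat arrays, −0.18 and −0.18 on day 2, −0.63 and −0.04 on day 9, −0.22 and −0.29 on day 16 and −0.32 and −0.29 at day 22, as deposited. Day 9 replicate 1 was the lowest of all 11 arrays and day 9 replicate 2 lay within the chemostat range. On day 9 replicate 1, 69 of 80 members read below every chemostat array (39.1% of all genes), against 27 on day 9 replicate 2 (30.6% of all genes). After median scaling the members' median was −0.58 and −0.16 on these arrays. The 5′ to 3′ ratio of the actin control probe sets, a measure of RNA integrity, was 0.472 on day 16 replicate 2, 0.571 on day 22 replicate 1 and 0.341 on day 22 replicate 2, against 0.766 to 0.796 on the chemostat arrays. The TBP control showed no such order (0.443 to 0.604 over the 11 arrays), and the part of RNA integrity in the results was not tested beyond leaving out the 2 arrays with the lowest actin ratio.

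At day 2, RPS22B alone fell among the members, with 0.5% of all genes fallen, and none rose (1.05% of all genes rose, and no member did at an unadjusted p under 0.05). RPS22B, a small subunit protein copy, read 888, 874 and 934 in the chemostats, 453 and 576 on day 2, 558 and 646 on day 9, 854 and 866 on day 16 and 883 and 1024 at day 22. Both day 2 arrays and both day 9 arrays lay below every chemostat array, and the day 22 arrays lay within or above the chemostat range. The change was −0.82 ± 0.16 at day 2 (adjusted p = 0.0417) and −0.58 ± 0.16 at day 9 (adjusted p = 0.0162), but 0.08 at day 22 (adjusted p = 0.712). Although few members passed the test at day 2, 36 of 80 read below every chemostat array on both day 2 arrays, where 16% of all genes did, and 1 read above on both (22.4% of all genes). The day 2 call was lost without any 1 of the other arrays except the 2 of day 9, with adjusted p for RPS22B up to 0.228 without day 2 replicate 1.

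At day 9, 11 members fell (15.6% of all genes) and 2 rose (22.4%), so the share fallen, 13.8% of members, was close to that of all genes. RPS1B, a small subunit protein near the messenger RNA exit, read 488 and 977 at day 9, against 1457, 1806 and 1352 in the chemostats, a change of −1.14 ± 0.27 (adjusted p = 0.00767). RPL22B, the minor copy of a nonessential large subunit protein, read 90.9 and 159 at day 9, against 268, 319.7 and 206 in the chemostats, a change of −1.11 ± 0.25 (adjusted p = 0.00602). Both day 9 arrays lay below all chemostat arrays for these genes, with replicate 1 the lower one. RPS26B and RPL7A followed with −1.09 (adjusted p = 0.019) and −1.03 (adjusted p = 0.0126). The risen members were RPS26A, with 0.68 (adjusted p = 0.0233) but −0.01 after quantile normalization and −0.36 on its other probe set, and RPL15B, a large subunit protein copy, with 0.56 (adjusted p = 0.0429). RPL15B read 1553 and 1776 at day 9 and 1101, 937 and 1392 in the chemostats, so the groups did not overlap. After quantile normalization 0 members rose at day 9, so RPL15B lost its call as well. A brighter probe set shared by RPL15A and RPL15B, not tested, gave −0.23 at day 9 and −0.29 at day 22. The count of fallen members rested on the array that stood apart: it was 0 without day 9 replicate 1 and 43 without day 9 replicate 2, and 7, 5 and 6 without chemostat replicate 1, 2 and 3.

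At day 16, 9 members fell (12.8% of all genes fell), and 1 rose, RPS14B (26.6% of all genes rose). RPL22B stood at 131 and 128, against 268, 319.7 and 206 in the chemostats, a change of −1.01 ± 0.25 (adjusted p = 0.00892), with no overlap. RPS7A, a small subunit protein that takes part in ribosomal RNA processing, read 2076 and 1222 on day 16 and 2371, 3250.2 and 3445 in the chemostats, a change of −0.91 ± 0.29 (adjusted p = 0.0296). A second probe set of RPS7A, not tested by itself, gave smaller changes, −0.39 on day 16 and −0.42 at day 22. RPL27B, a large subunit protein copy, and RPL7A had −0.85 (adjusted p = 0.0121) and −0.84 (adjusted p = 0.0294). For RPS7A and RPL7A the fall was mostly on replicate 2, where the actin ratio was 0.472. Without that array 0 members fell at day 16, and 5 did without day 16 replicate 1, 4, 2 and 3 without chemostat replicate 1, 2 and 3, 5 without any 1 of the day 2 or day 22 arrays, and 18 without either day 9 array.

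At day 22, where growth had slowed about 39.7-fold, 13 members fell (10.8% of all genes fell) and none rose (31.8% of all genes rose, and 1 member did at an unadjusted p under 0.05). The largest fall was that of RPP2A, which encodes an acidic protein of the stalk, the arm of the large subunit that recruits translation factors. It read 2305, 3129.7 and 1962 in the chemostats, 1927 and 1388 on day 2, 1423 and 1596 on day 9, 1978 and 1054 on day 16 and 878 and 869.6 at day 22. The day 22 arrays lay close together and below the other 9 arrays, and the change was −1.47 ± 0.28 (adjusted p = 0.00196), a level of 0.361 relative to the chemostat. RPL7A, a large subunit protein, read 1538 and 1657 at day 22, against 3401, 3893 and 3927 in the chemostats, a change of −1.23 ± 0.27 (adjusted p = 0.00446). Its groups were well apart.

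Among the small subunit, RPS26B, whose protein sits at the messenger RNA exit, read 413 and 471 at day 22, against 787, 837 and 1025 in the chemostats, a change of −0.99 ± 0.31 (adjusted p = 0.0257). RPS7B read 1112 and 698 at day 22, against 1538, 1699 and 1806 in the chemostats, a change of −0.93 ± 0.25 (adjusted p = 0.0135). Neither overlapped the chemostats, and the RPS7B signal was much lower on replicate 2. The other fallen small subunit genes were RPS1B (−0.91), RPS7A (−0.82), RPS13 (−0.73), the decoding-fidelity protein gene RPS9B (−0.71), RPS0B (−0.60) and RPS14A (−0.55). Of the large subunit, RPL3, which encodes a protein close to the peptidyl transferase centre, RPL21A and RPL28, the cycloheximide resistance gene CYH2, fell by 0.62, 0.50 and 0.47 on the log2 scale. The adjusted p of these 9 genes lay between 0.00829 and 0.0405.

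**Figure D2:**
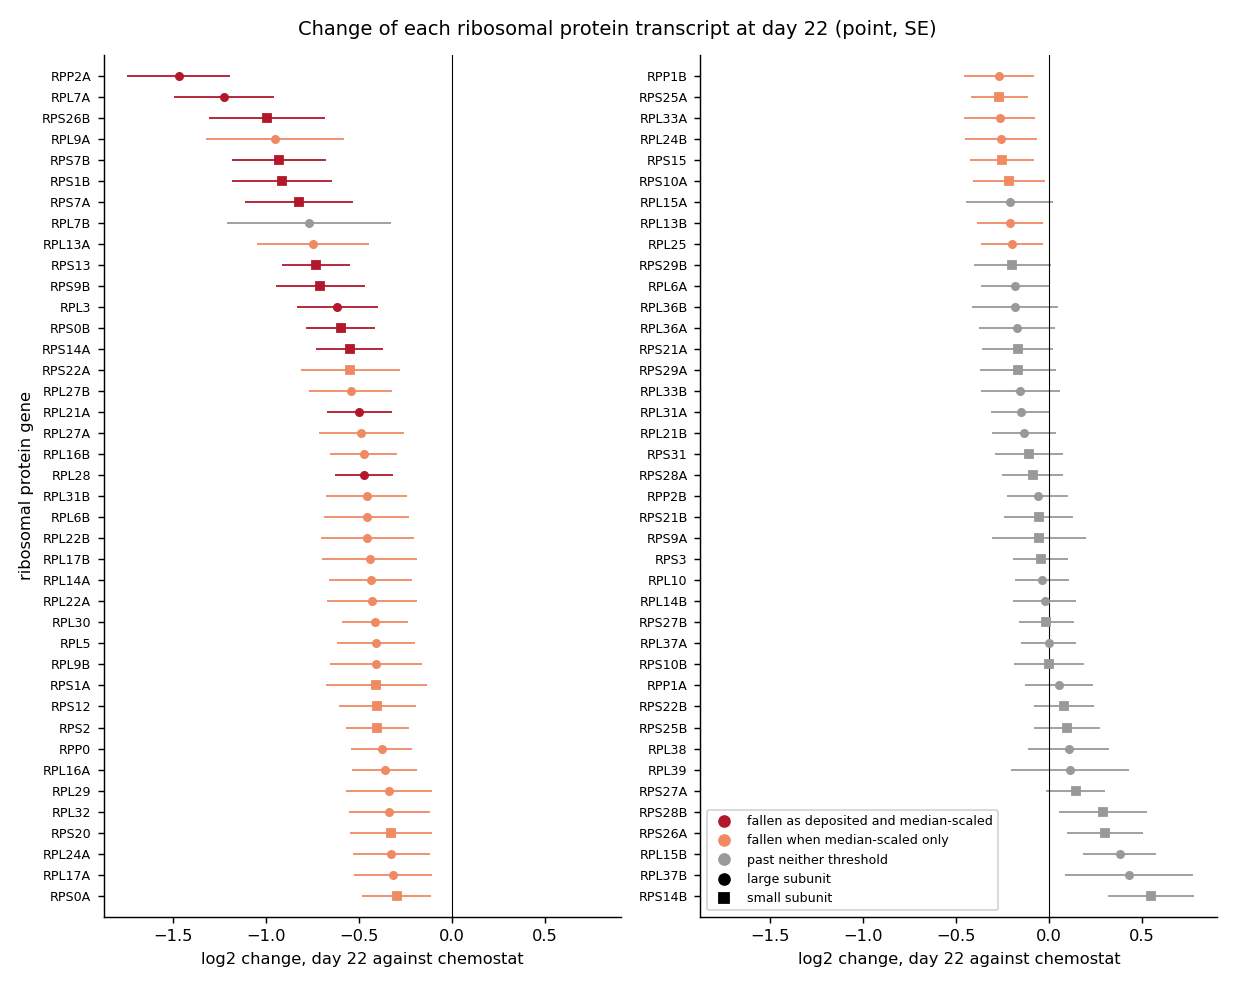
Log2 change at day 22 against the chemostat, deposited scale (horizontal axis, point with SE), for each of the 80 members in order of the change (vertical axis). The 13 members fallen on the deposited scale are dark red, the 34 fallen only after median scaling are orange, and no member passes the threshold on the side above 0.

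The highest values at day 22 were 0.55 for RPS14B (adjusted p = 0.0783), 0.43 for RPL37B and 0.38 for RPL15B, and none passed the test. RPL37B read 4171 and 5603 at day 22 and 1936, 4875 and 4879 in the chemostats, so its value rests on 1 low chemostat array. The day 22 count moved with the arrays used. It was 3 without day 22 replicate 2 and 7 without day 22 replicate 1, 8, 5 and 6 without chemostat replicate 1, 2 and 3, and 26 without either day 9 array, and 3 without the 2 arrays of lowest actin ratio. RPP2A stayed past the threshold in all of these.

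The number of calls depended on the scaling. After median scaling, 1, 19, 26 and 47 members fell at days 2, 9, 16 and 22, where 0.536%, 17.4%, 18.5% and 20.1% of all genes fell. Risen members numbered 0, 2, 0 and 0, where 0.518%, 20.8%, 19.9% and 18.1% of all genes rose. Thus at day 22 the share of members fallen was 58.8% against 20.1% of all genes after median scaling, but 16.2% against 10.8% on the deposited scale. All 13 members fallen on the deposited scale were also fallen after median scaling. RPP2A and RPL7A then stood at −1.74 and −1.50 (adjusted p = 0.00131 and 0.00131). Among the members added, picked here after their values were seen, were RPL9A (−1.22), RPL13A (−1.02), RPL5, which carries the 5S ribosomal RNA into the large subunit (−0.68), RPL25, which binds at the exit of the peptide tunnel (−0.47), and RPL30 (−0.69). With quantile normalization the counts fallen were 1, 18, 15 and 16, where 0.59%, 16.8%, 17.5% and 16.6% of all genes fell.

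**Figure D3:**
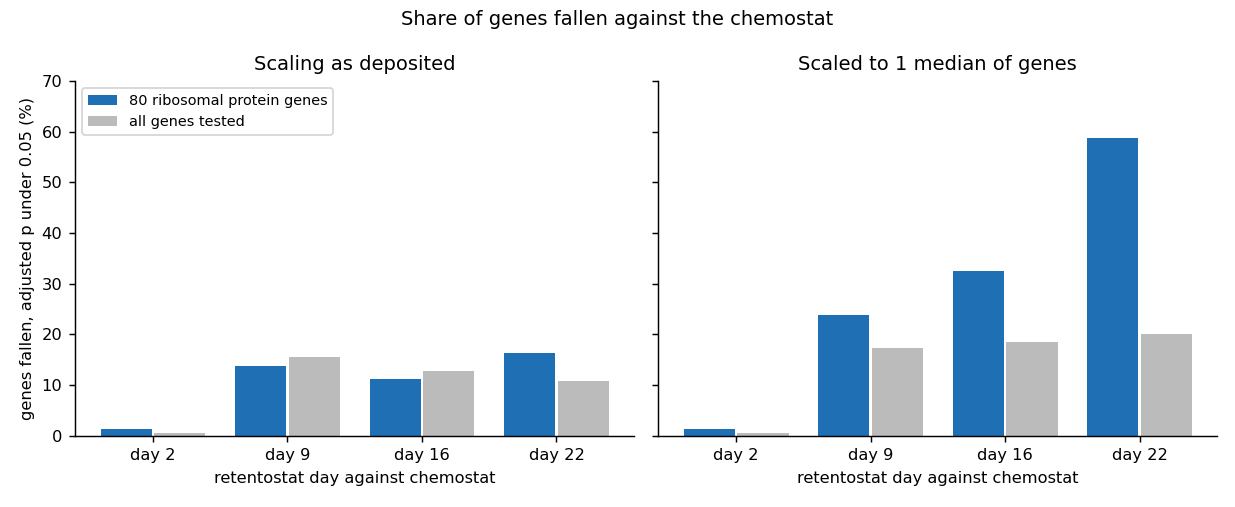
Share of genes fallen against the chemostat at an adjusted p under 0.05 (vertical axis, percent) at each retentostat day (horizontal axis), for the 80 members and for all genes tested, as deposited (left) and scaled to 1 median of genes (right). The shares of members and of all genes lie close together on the left, while on the right the members reach 58.8% at day 22.

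The arrays of many members did not overlap with the chemostats. Members with both arrays below all chemostat arrays numbered 27 at day 9 (25.1% of all genes), 49 at day 16 (24.8%) and 50 at day 22 (21.2%), as deposited. Members with both arrays above numbered 4 (35.4%), 3 (41.3%) and 1 (46.5%). The last was RPS14B. On the deposited scale 55 members had their highest group mean in the chemostats, 32 had their lowest at day 9 and 26 at day 22. After median scaling 61 had their highest mean in the chemostats and 62 their lowest at day 22.

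Between retentostat days few members passed the test. At day 9 against day 2, 0 members fell (2.25% of all genes fell, and 2 members did at an unadjusted p under 0.05) in limma, and RPS14B rose (3.56% of all genes). At day 22 against day 2, 0 members fell (3.23% of all genes, 2 members at an unadjusted p under 0.05) and 2 rose (13.5% of all genes), RPS14B by 0.99 ± 0.25 (adjusted p = 0.0237) and RPS22B by 0.90 ± 0.18 (adjusted p = 0.00709). Both day 22 arrays lay below both day 2 arrays for 34 members (17.2% of all genes) and above them for 8 (43.7%). After median scaling RPP2A also fell at day 22 against day 2, by 1.13 on the log2 scale (adjusted p = 0.0459), where 5.97% of all genes fell. RPS22B alone rose there, where 6.4% of all genes did. On that scale the median change of the members between these days was −0.38 (−0.03 for all genes), and as deposited it was −0.16 (0.19). After median scaling 70 of 80 members lay below 0 (52.4% of all genes). In limma at an unadjusted p under 0.05, 25 members then fell, where 831 of 5594 genes did. The moderated F test over the 5 groups called 8 members, RPS22B, RPS14B, RPP2A, RPL22B, RPL7A, RPS1B, RPS13 and RPL27B, where it called 39.5% of all genes. Over the 4 retentostat days it called RPS22B and RPS14B, where it called 11.8% of all genes. After median scaling the F test over the 5 groups called 20 members, where it called 37.3% of all genes. The F count ran from 2 without chemostat replicate 2 to 36 without day 9 replicate 2.

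Both large and small subunit genes had medians below their chemostat level. At day 22 the median change was −0.34 for the 47 large subunit members and −0.21 for the 33 small subunit members, while 5 and 8 of them fell (10.8% of all genes). After median scaling the medians were −0.61 and −0.48, with 30 and 17 fallen (20.1% of all genes). The median of the large subunit minus that of the small subunit, which no scaling of whole arrays alters, was 0.00, −0.02 and 0.02 on the chemostat arrays, 0.02 and 0.06 on day 2, −0.13 and 0.06 on day 9, −0.10 and −0.06 on day 16 and −0.10 and −0.12 at day 22. The 4 arrays of days 16 and 22 all lay below the chemostat arrays. The SD of this difference between arrays of a group was 0.0598, and no test was made of a summary over members.

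The stalk genes differed among themselves. RPP0, the protein that anchors the stalk, read 4684 and 3333 at day 22 and 5071, 5269 and 5067 in the chemostats (−0.38 (adjusted p = 0.0865)), so the lower value came from replicate 2. RPP1A and RPP1B, which pair with the P2 proteins on RPP0, had 0.06 (adjusted p = 0.84) and −0.27 (adjusted p = 0.273), and RPP2B had −0.06 (adjusted p = 0.803). Of the 5, RPP2A was alone in falling on the deposited scale, on the probe sets used. A second probe set of RPP1B, not tested by itself, gave −0.64 at day 22. It read 2483 and 2152 at day 22, against 3467, 4201 and 3196 in the chemostats. After median scaling RPP0 and RPP1B fell as well (−0.65 and −0.54, adjusted p = 0.0132 and 0.0345). RPS31, a small subunit protein made as a fusion with ubiquitin, read 3697 and 3745 at day 22 and 3818, 4143 and 4069.8 in the chemostats (−0.11 (adjusted p = 0.671)).

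A and B paralogues were compared through the ratio of their signals on each array, which whole-array scaling leaves unchanged. Taken as groups, the A copies had a median change of −0.30 and the B copies of −0.21 at day 22, with 5 of 31 fallen in each (10.8% of all genes). At day 9, 2 A and 7 B copies fell (15.6% of all genes), and the median difference A minus B over the 31 pairs ran between −0.11 at day 9 and 0.02 at day 2. After median scaling 19 A and 15 B copies had fallen at day 22 (20.1% of all genes). The change of the ratio passed the test over the 5 groups for 4 of 31 pairs (39.3% of genes and pairs together), and at day 22 against the chemostat for 4 of 31 (42.5%). For 16 of the 80 members the probe set used was of a design that may also bind related sequences, both copies of RPL14, RPL33 and RPS29 among them. A pair without a call is thus not shown to have moved together, and the part of such binding was not tested.

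RPP2 and RPS14 both shifted towards the B copy. The log2 ratio RPP2A over RPP2B, with the chemostat mean at 0, was −0.10, 0.52 and −0.42 in the chemostats, −0.54 and −0.78 on day 2, −1.16 and −0.88 on day 9, −0.33 and −1.32 on day 16 and −1.57 and −1.25 at day 22. The day 22 arrays lay below all chemostat arrays, and the change was −1.41 ± 0.34 (adjusted p = 0.00728), leaving 0.376 of the chemostat ratio. RPP2B itself read 5493 and 4354 at day 22 and 5205, 4600.1 and 5529 in the chemostats, which overlap, so the shift came with the fall of RPP2A.

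RPS14 showed the pattern with both copies moving apart. Rps14 is a small subunit protein that is known to bind the RPS14B transcript and hold it down. RPS14B read 836, 863 and 875 in the chemostats, 524 and 758 on day 2, 1414 and 1197 on day 9, 1903 and 1165 on day 16 and 1404 and 1121 at day 22. It was below all chemostat arrays at day 2 and above all of them at days 9, 16 and 22, and it passed the test at day 16 (0.80 ± 0.23, adjusted p = 0.0197) and at day 9 against day 2 (1.05 ± 0.25, adjusted p = 0.0389). RPS14A read 1334 and 1103 at day 22, against 1758, 1932 and 1649 in the chemostats, and fell by 0.55 on the log2 scale (adjusted p = 0.0303). The change of the A-to-B ratio was −0.97 ± 0.28 on day 9, −1.07 ± 0.28 on day 16 and −1.10 ± 0.28 at day 22 (adjusted p = 0.0211, 0.0129 and 0.0103), against 0.14 ± 0.28 at day 2. Set against day 2, the day 22 ratio was lower by 1.24 ± 0.31 (adjusted p = 0.022). After median scaling RPS14B at day 16 stood at 0.65 (adjusted p = 0.0558), so its own rise, unlike the ratio, depends on the scale.

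**Figure D4:**
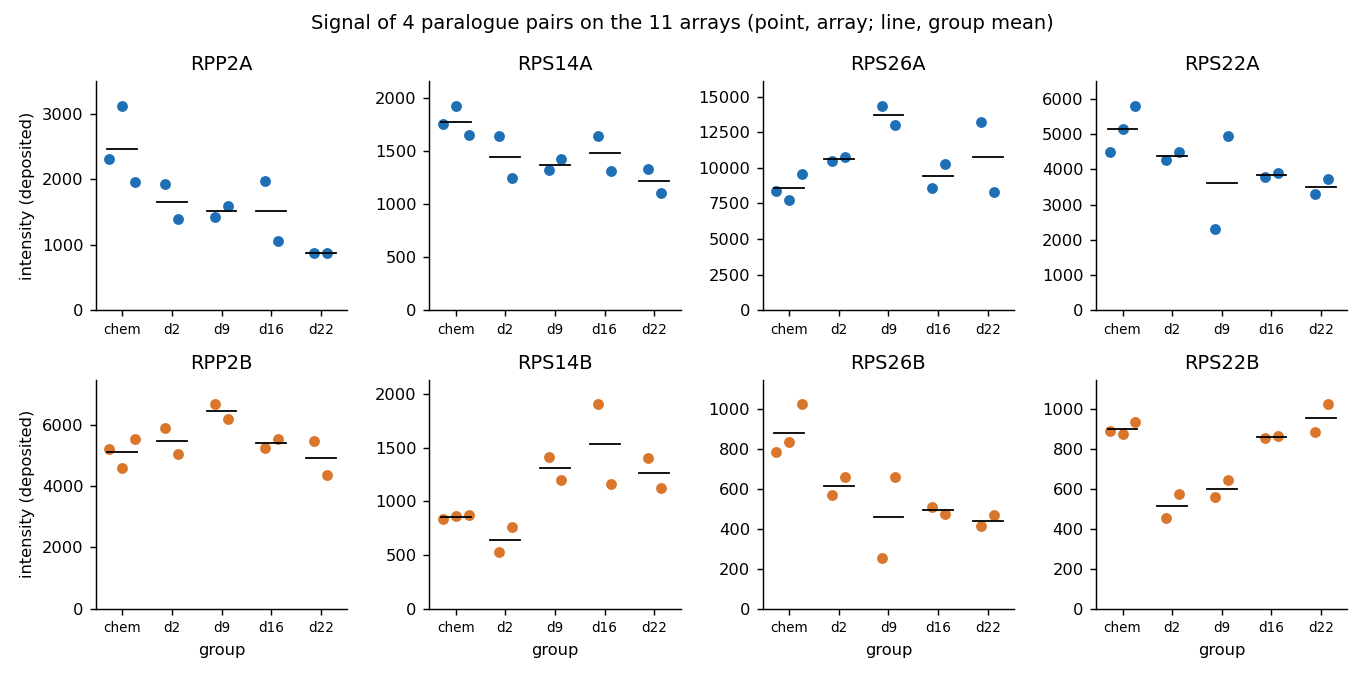
Deposited intensity (vertical axis, from 0, own scale in each panel) of the A copy (top) and B copy (bottom) of 4 pairs on the 11 arrays by group (horizontal axis), with group means as lines. RPP2A and RPS26B decline, RPS14B steps up after day 2, and RPS22B dips at days 2 and 9 and returns.

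On the probe sets used, RPS26 shifted the other way, towards the A copy. Its log2 ratio, A over B, was 0.14, −0.08 and −0.06 in the chemostats, 0.92 and 0.75 on day 2, 2.53 and 1.02 on day 9, 0.78 and 1.15 on day 16 and 1.72 and 0.86 at day 22. Every retentostat array lay above every chemostat array, and the ratio was 3.43 times the chemostat ratio at day 9 (adjusted p = 0.00609) and 2.45 times at day 22 (adjusted p = 0.023). RPS26A read 14383 and 13025 at day 9, against 8398, 7712 and 9564 in the chemostats, and then 13251 and 8327 at day 22, where the arrays straddled the chemostat range. A second probe set of RPS26A gave −0.36 at day 9 and −0.26 at day 22, opposite in sign to the 0.68 and 0.30 of the one used. With that probe set the ratio was 1.66 times the chemostat ratio at day 9 (adjusted p = 0.0866) and 1.67 times at day 22 (adjusted p = 0.0778), and neither passed the test. Both the rise of RPS26A at day 9 and the called shift of the ratio thus rest on 1 of its probe sets. The second probe set is of a design that may also bind related sequences, and the one used is not. Whether the second one also bound RPS26B was not tested.

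RPS9 and RPS22 were called on probe sets of a design that may also bind related sequences. The RPS9A-to-RPS9B ratio rose by 0.66 ± 0.22 at day 22 (adjusted p = 0.0354) and by 0.94 ± 0.24 against day 2 (adjusted p = 0.0255). RPS9A read 819, 879.5 and 704 in the chemostats, 494 and 478 on day 2, 359.5 and 722 on day 9, 649 and 612 on day 16 and 846 and 699.9 at day 22, a dip and a return, whereas RPS9B stayed low with 1065 and 1193 at day 22, against 1775, 1872 and 1877 in the chemostats. The RPS22 ratio was called over the 5 groups and at day 22 against day 2 (−1.22 ± 0.29, adjusted p = 0.0182), not at day 22 against the chemostat (−0.63 ± 0.27, adjusted p = 0.0799). Its call by the F test over the 5 groups was lost after quantile normalization (adjusted p = 0.146). With the brightest probe set outside that design, where a gene has one, the day 22 changes were 0.46 for RPS9 (adjusted p = 0.155) and 0.02 for RPS22 (adjusted p = 0.968). RPS9A has no other probe set, so its part of the RPS9 value stays the same. The RPS22 value depends on which of the other probe sets of RPS22B is taken, since they gave 0.18 and −0.57 at day 22. For RPL15, RPL9 and RPL13, the next pairs by size, the changes at day 22 were −0.59 ± 0.28, −0.54 ± 0.27 and −0.54 ± 0.27, with adjusted p between 0.106 and 0.126. Quantile normalization, unlike scaling of whole arrays, can alter a ratio, and after it RPL15 and RPS1 passed at day 22 (limma adjusted p = 0.0466 and 0.0353). The number of pairs called at day 22 was 0 without day 22 replicate 1, 2 without chemostat replicate 2 and 2 without the 2 arrays of lowest actin ratio. Over the 5 groups it was 1 without chemostat replicate 1, chemostat replicate 2 or day 22 replicate 1, 2 without either day 2 array, day 16 replicate 2 or day 22 replicate 2, and 0 without the 2 arrays of lowest actin ratio.

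**Figure D5:**
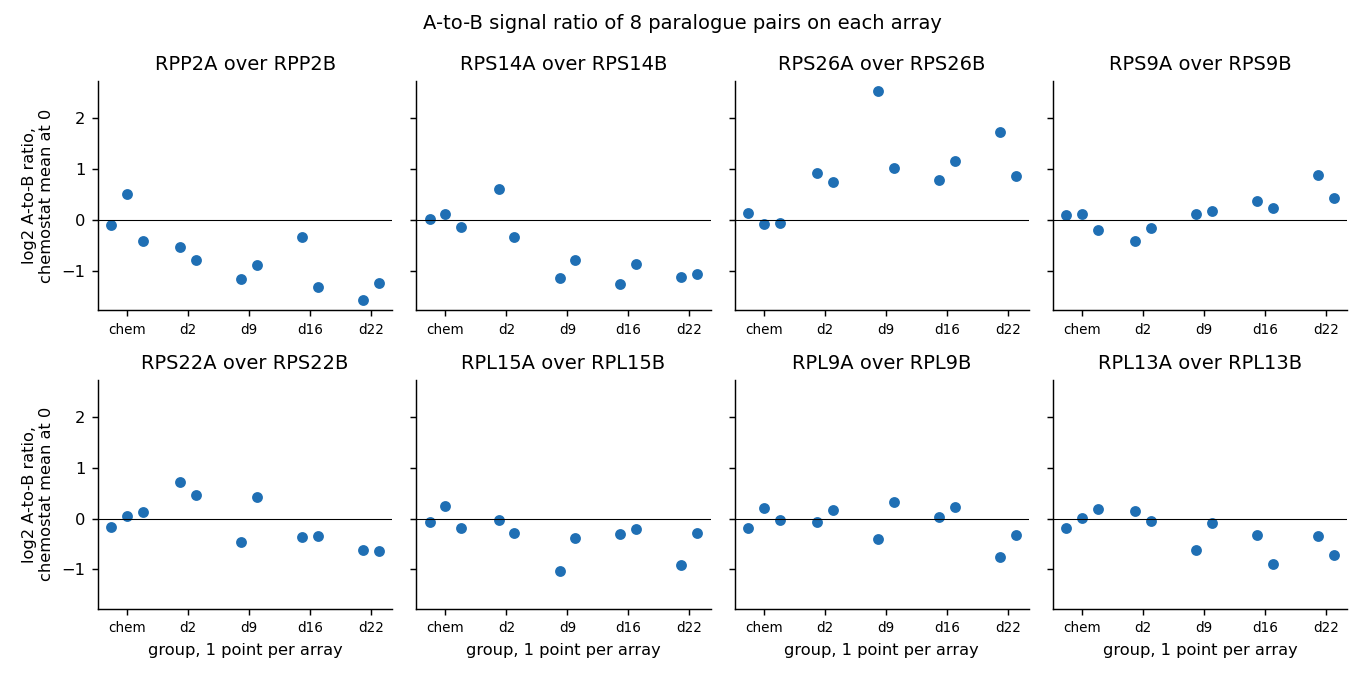
Log2 ratio of the A to the B signal with the chemostat mean at 0 (vertical axis) on the 11 arrays by group (horizontal axis), for the 8 pairs with the largest changes at day 22. RPP2 and RPS14 sink below 0, RPS26, on the brighter probe set of RPS26A, lies above 0 on all 8 retentostat arrays, and the lower row shows changes of under 1 at day 22.

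Several genes had more than 1 probe set. Of 21 such members, 5 had probe sets of both signs at day 22, RPL7A, RPS10B, RPS22B, RPS26A and RPS28B. RPL7A had −1.23 and −1.59 on its bright probe sets and 1.09 on one that read at most 12.7 in the chemostats. A small nucleolar RNA gene, SNR39, lies within RPL7A and had 2.11 at day 22 (adjusted p = 0.000269), opposite to its host. Another, SNR44, lies within RPS22B and had 0.40 (adjusted p = 0.112), and SNR59, within RPL7B, was not tested. RPS22B had 0.08, 0.18 and −0.57, and all 3 probe sets were lower at days 2 and 9, between −1.35 and −0.58. RPS28B had 0.29 and −0.25, and RPS10B had 0.00 and −0.42, the second of these near the lower limit. Of 59 probe sets shared by paralogues, 47 belong to genes that are no members. These were not tested and had medians of −0.14, −0.37, −0.27 and −0.33 at days 2, 9, 16 and 22, and 42 of the 47 lay below 0 at day 22. The lowest was one of the 3 probe sets for RPL40A and RPL40B, which encode a large subunit protein fused to ubiquitin, with −1.09, while the other two had −0.20 and −0.17. The highest were both probe sets for RPS30A and RPS30B, which encode a small subunit protein, with 0.35 and 0.42. The rest of the 59 name both copies of a member pair, were not tested either, and all lay below 0 at day 22. Among them were −0.61 for RPL7A and RPL7B, −0.51 for RPS1A and RPS1B, −0.35 for RPL9A and RPL9B and −0.29 for RPL15A and RPL15B.

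Among genes that act on ribosomal protein genes, 12 transcription regulators were tested. On the deposited scale 1 rose and 2 fell at days 9 and 16, and 3 rose and 2 fell at day 22, where 31.8% of all genes rose and 10.8% fell. After median scaling 1 rose on each of these days and 3, 3 and 4 fell, where 18.1% of all genes rose and 20.1% fell at day 22. IFH1, the coactivator that binds these promoters in growing cells, read 57.5 and 90.8 at day 9 and 92.7 and 95.3 at day 22, against 146, 157 and 134 in the chemostats. It fell at days 9, 16 and 22, with −1.01 (adjusted p = 0.00276), −0.83 (adjusted p = 0.00666) and −0.63 (adjusted p = 0.0231). CRF1, which encodes a corepressor that competes with Ifh1, rose at day 9 (0.73 (adjusted p = 0.0138)) and day 22 (0.55 (adjusted p = 0.0395)), but not at day 22 after median scaling (0.28, adjusted p = 0.227). ABF1, a general factor that binds some of these promoters, fell on the same 3 days as IFH1 (−0.57, −0.61 and −0.53). The histone acetyltransferase gene ESA1 rose at day 16 (0.65) and day 22 (0.81), and the deacetylase gene RPD3 rose at day 22 (0.49), though not after median scaling (0.22). RAP1, FHL1 and SFP1 did not pass the test on the deposited scale, with −0.11 (adjusted p = 0.666), −0.29 (adjusted p = 0.259) and 0.26 (adjusted p = 0.21) at day 22. After median scaling FHL1 fell at day 22 (−0.57, adjusted p = 0.0498), and so did the histone acetyltransferase gene GCN5 (−0.62, adjusted p = 0.00856).

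Of 18 genes of TOR and protein kinase A signalling, 5 rose and 1 fell at day 9 (22.4% and 15.6% of all genes), 6 rose and 1 fell at day 16 (26.6% and 12.8%), and 5 rose and 1 fell at day 22 (31.8% and 10.8%). The share risen, 5 or 6 of 18, was thus near that of all genes. SCH9, the kinase by which TOR promotes ribosomal protein expression, rose on all 3 days (0.82, 0.65 and 0.97), and so did RIM15, the kinase held inactive by TOR and protein kinase A (0.84, 0.87 and 1.00). At day 22 LST8, TAP42 and GTR2 also rose (1.19, 0.66 and 0.75), and TCO89, a TOR complex subunit, fell (−0.44). At day 9 BCY1, the inhibitory subunit of protein kinase A, rose by 1.34 (adjusted p = 0.00142), TPK2 and YAK1 rose, and RAS1 fell. At day 16 LST8, SIT4, BCY1 and YAK1 rose and TCO89 fell. After median scaling 5, 3 and 3 genes of this list rose at days 9, 16 and 22 (20.8%, 19.9% and 18.1% of all genes). On the same scale 2, 4 and 1 fell (17.4%, 18.5% and 20.1%), and TAP42 and GTR2 no longer passed at day 22.

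Several genes on a list of ribosome-bound and ribosome-preserving factors fell. Of 13 tested, 5, 4 and 5 fell at days 9, 16 and 22 (15.6%, 12.8% and 10.8% of all genes) and none rose, and the median change at day 22 was −0.31. At day 22 these were ASC1, a signalling scaffold on the small subunit (−0.71 (adjusted p = 0.00759)), STM1, which clamps idle ribosomes (−0.64 (adjusted p = 0.0163)), LSO2 (−0.64 (adjusted p = 0.0123)), SBP1 (−0.53 (adjusted p = 0.0354)) and the recycling factor gene RLI1 (−0.75 (adjusted p = 0.0267)). At day 9 ASC1, STM1, LSO2, TMA20 and RLI1 fell, and at day 16 ASC1, LSO2, SBP1 and RLI1. After median scaling 5, 6 and 6 of this list fell, where 17.4%, 18.5% and 20.1% of all genes fell. Of 15 chaperones and escorts of ribosomal proteins, 6 fell at day 9 (15.6% of all genes), among them RRB1, the chaperone of Rpl3 (−1.37 (adjusted p = 0.0027)), ACL4, the chaperone of Rpl4 (−0.49 (adjusted p = 0.0386)), and EGD1 and EGD2 of the nascent chain complex (−0.49 and −0.63), with LOC1 (−0.99) and ZUO1 (−0.73). On the deposited scale LOC1 and RRB1 fell at day 16 (−1.67 and −0.74), where 12.8% of all genes fell. At day 22 LOC1 fell (−1.10) and JJJ1 rose (0.65), where 10.8% of all genes fell and 31.8% rose. After median scaling 7, 4 and 5 of these genes fell at days 9, 16 and 22, where 17.4%, 18.5% and 20.1% of all genes fell. None of them rose, where 20.8%, 19.9% and 18.1% of all genes did. At day 22 the 5 were LOC1, RRB1, ZUO1, EGD1 and EGD2, and JJJ1 stood at 0.37 (adjusted p = 0.0887). Of 9 modifying enzymes, 1, 2 and 1 fell at days 9, 16 and 22, where 15.6%, 12.8% and 10.8% of all genes fell. None rose, where 22.4%, 26.6% and 31.8% of all genes rose. TPA1, the hydroxylase of Rps23, fell on all 3 days (−1.11, −0.96 and −0.53), and RKM4, a methyltransferase, fell at day 16 (−0.50).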

How the data were processed

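Total RNA from 11 culture samples was hybridised to Affymetrix yeast arrays, 1 array per sample. The deposited values are linear intensities from GCOS 1.2, per the submitters' processing notes, already summarised per probe set. The 2% trimmed means of the arrays differ by at most 0.0218%. The target of that scaling is not given in the sources used here. Probe sets were named from GEO's platform annotation: of 9335, 60 are controls, 6504 name 1 gene, 328 several and 2443 none. For genes with several single-gene probe sets, the one with the highest mean was used. Intensities under 12 were set to 12, log2 was taken, and 59 genes at 12 on all arrays were dropped, leaving 5597.

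Groups were fitted with limma 3.58.1 in R 4.3.3 (lmFit and eBayes, 1 mean per group over all 11 arrays, 6 residual degrees of freedom, Benjamini-Hochberg over all genes). Paralogue ratios entered the same fit as additional features, 5628 in all. The code was tested on simulated data. The members and lists were chosen with earlier results of these data known. The genes named are up to 4 fallen and 4 risen members with the largest change per day, the stalk and ubiquitin fusion genes, the 3 highest and 3 lowest at day 22, the 8 pairs with the largest ratio change, members whose probe sets differ in sign, and listed genes that passed. The remaining members fallen at day 22 were named after their values were seen. The separate cultures of a group are the replicates.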

Additional observations from a re-analysis of the deposited data

How the results depend on the processing

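The rule named 36 results, each a member or pair on 1 day. Of their 900 recomputed values, 801 were counted as the same, 83 lost the call and 13 gained one. The other 3 changed sign with a call before or after the change. A value without a call on either side was counted as the same, even with a change of sign. The 801 is therefore not a count of calls that held. Of these 3, RPS26A at day 9 changed sign under quantile normalization (−0.0073, adjusted p = 0.982) and with its other probe set (−0.36, adjusted p = 0.0709). RPS22B at day 22 did so with the brighter of its probe sets outside the design that may bind related sequences (−0.57, adjusted p = 0.0299). The dimmest probe set of RPS22B kept the sign (0.18). Scaled to 1 median, 19, 26 and 47 members fell at days 9, 16 and 22, 0 rose at day 16, 1 fell and 1 rose at day 22 against day 2, and the F test over the 5 groups called 20. Under quantile normalization 18 fell at day 9 and 15 at day 16, while 0 rose at day 9 and at day 9 against day 2. With a floor of 1, 0 fell at day 2, 1 rose at day 9, 0 rose at day 9 against day 2 and 2 pairs were called over the 5 groups. With no filter 0 rose at day 9 against day 2 and 2 pairs were called over the 5 groups. With the mean of a gene's probe sets 1 rose at day 9, with a trended robust fit 1 fell at day 22 against day 2, and with probe sets outside the design that may bind related sequences, where a gene has one, 1 rose at day 22 against day 2. With the other probe set of RPS26A 1 rose at day 9 and the RPS26 ratio lost its call at day 22 (0.74). The last 2 alternatives were chosen after seeing the data. A fit of only the arrays compared called 0, 1, 18 and 29 fallen at days 2, 9, 16 and 22, with 1 risen at day 22 and 0 risen at day 9 and at day 22 against day 2. Without the 2 arrays of lowest actin ratio, also chosen after seeing the data, 0, 5, 0 and 3 fell at days 2, 9, 16 and 22, 1 rose at day 22, 0 rose at day 9 and at day 22 against day 2, the F test called 2 members and 0 pairs, and 2 pairs were called at day 22. The cause of these differences was not tested.

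Replicate numbers are shared between groups, but the labels do not say that a number marks a vessel. Differences between replicate 1 and 2 over genes correlated between retentostat days at 0.0656 to 0.394. With the replicate number as a block, 4 members fell at day 16 and the F test called 5, and the other counts stayed within 1.5 times. Leaving out 1 array at a time gave, for days 2, 9, 16 and 22, 0 to 2, 0 to 43, 0 to 18 and 3 to 26 fallen members. Risen members numbered 0 to 2 at day 9 and 0 to 1 on days 16 and 22. At day 9 against day 2, 0 to 23 fell and 0 to 1 rose, and at day 22 against day 2, 0 to 1 fell and 0 to 3 rose. The F test called 2 to 36 members and 1 to 3 pairs, 0 to 5 pairs were called at day 22, and the large minus small median lay between −0.1252 and −0.0986.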

Other observations

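Some members lay close to their chemostat level at day 22. RPL10, which encodes a protein that joins the large subunit late in its maturation, read 5605, 5305 and 5513 in the chemostats, 5379 and 5439 on day 2, 6607 and 5508 on day 9, 5605 and 6215 on day 16 and 5268 and 5404 at day 22, with −0.04 ± 0.15 at day 22 (adjusted p = 0.867). RPS3, a small subunit protein at the messenger RNA entry, read 5702, 5817 and 5829 in the chemostats, 4464 and 5027 on day 2, 4647 and 5502 on day 9, 6262 and 6686 on day 16 and 5362 and 5873 at day 22, with −0.04 ± 0.15 at day 22 (adjusted p = 0.843). Both arrays of RPS3 lay below every chemostat array at days 2 and 9 and above every one on day 16. After median scaling RPL10 and RPS3 stood at −0.31 and −0.32 (adjusted p = 0.146 and 0.0798). Both were chosen after their values were seen, and a p above the threshold does not show that they did not change. RPL39, a short large subunit protein in the peptide tunnel, differed between the arrays of a day, with 1308 and 2672 at day 9 and 1923 and 3638 at day 22, against 2646, 2332 and 2366 in the chemostats.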
